A study of Mus musculus with 6 samples.

Results

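The 10 genes described here encode proteins that keep retroelements and the 2-cell program silent in mouse pluripotent cells. They were taken by name from a table of 24421 gene entries, where all 10 were found and all 10 passed the filter on low counts. Their positions below are gene spans in GRCm38, the assembly of the mm10 build used by the submitters. All RNA came from mouse iPSCs, that is, induced pluripotent stem cells made by returning somatic cells to an embryonic stem cell-like state. In the SRF KO group both copies of the conditional gene of serum response factor (SRF), a transcription factor of cytoskeletal and immediate-early genes, were deleted (SRFΔ/Δ). The WT group carries the same conditional allele in its intact, floxed form (SRFf/f). Each group has 3 libraries of total RNA, all from serum-containing cultures, and the labels name no clone, passage, sex or feeder layer. Since nothing says that replicates came from separate cultures, p-values measure only the spread between these libraries, which may be technical.

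Retroelements are copies of viral and other mobile sequences, and in early embryos and pluripotent cells much of their silencing rests on methylation of histone H3 at lysine 9. KRAB zinc finger proteins read the DNA sequence of an element and bring the corepressor TRIM28, which brings the methyltransferase SETDB1, and HP1 proteins then bind the mark. Histone chaperones (the H3.3 pair ATRX and DAXX, and the replication-coupled complex CAF-1) and the histone demethylase LSD1 take part as well. Loss of CAF-1, LSD1 or TRIM28 is known to let embryonic stem cells enter a state that resembles the 2-cell embryo, in which the retroelement MERVL and genes such as Zscan4 are transcribed.

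Libraries held between 26321602 and 36680156 counts. Levels are counts scaled to library size (CPM) with TMM (trimmed mean of M values) factors. Each log2 fold change sets SRF KO against WT, negative where SRF KO is lower, and is given with its standard error (SE) from edgeR's quasi-likelihood test. Every adjusted p of a single gene or repeat below is from this test, with Benjamini-Hochberg adjustment over the 15611 entries tested and a threshold of 0.05. Srf itself was at 4.20, 3.17 and 4.53 CPM in SRF KO and at 36.6, 29.7 and 37.2 CPM in WT, so that the targeted gene went with the labels in all 6 libraries. WT replicate 2 stood apart from the other WT libraries, with a chi-square per degree of freedom of 12.3 and 15.4 against them and of 3.52 between those others. SRF KO replicate 2 stood apart from its group to a smaller extent, with 3.87 and 4.98 against 1.63 between the others. Of 12 pluripotency markers, 6 fell and 1 rose (0 without SRF KO replicate 1, SRF KO replicate 2, WT replicate 1 or WT replicate 3), and their summed level was between 6237 and 6371 CPM in SRF KO and between 7550 and 8040 CPM in WT, with none at 0. Of 16 extraembryonic endoderm markers 15 were tested and all 15 rose, with a sum between 3532 and 3791 CPM against 445 to 473 CPM. All 14 fibroblast markers rose as well, with a sum between 1427 and 1741 CPM against 693 to 802 CPM. Beside these counts, 21.2% of all 14778 genes tested rose and 21.3% fell. No marker on these lists was at 0 in all libraries. Their part in the results below was not tested, and in bulk RNA fewer cells of a type and less RNA per cell cannot be told apart.

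Differences in the silencer genes between SRF KO and WT were modest and ran both ways, and those past the threshold were all lower in SRF KO. Chaf1b and Kdm1a fell most firmly, by 22.1% and 19.5% of the WT mean, followed by Atrx, Cbx5, Chaf1a and Setdb1, which fell by between 19.2% and 8.01%. Trim28, Atf7ip, Daxx and Zfp809 did not pass the threshold, though Atf7ip and Daxx were above WT in every SRF KO library by as much as Setdb1 was below it (0.12 on the log2 scale). Without WT replicate 2, Atf7ip, Daxx and Zfp809 passed it as higher. In all, 6 of 10 were lower and 0 higher, against 21.3% lower and 21.2% higher (42.4% in either direction) among all 14778 genes tested. With the library totals unscaled the split was 2 higher and 4 lower, and with upper-quartile factors it was 1 higher and 5 lower. Over all 14778 genes the main fit gave 3132 higher and 3141 lower. Unscaled totals gave 3522 and 2576 over all, and upper-quartile factors 3192 and 3061. All 6 falls were smaller than 0.44, the median absolute log2 fold change of the genes called in this comparison. Their median over the 10 genes was -0.14, beside -0.01 over all genes. Only Chaf1b and Kdm1a stayed past the threshold under each of 13 alternative settings. Leaving out SRF KO replicate 1 brought the number of falls to 2, as did leaving out SRF KO replicate 3. The falls over all genes were then 2268 and 2296, in this order. The groups were fully separate for 8 of the 10 genes, and for 52.7% of all genes tested.

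**Figure D1:**
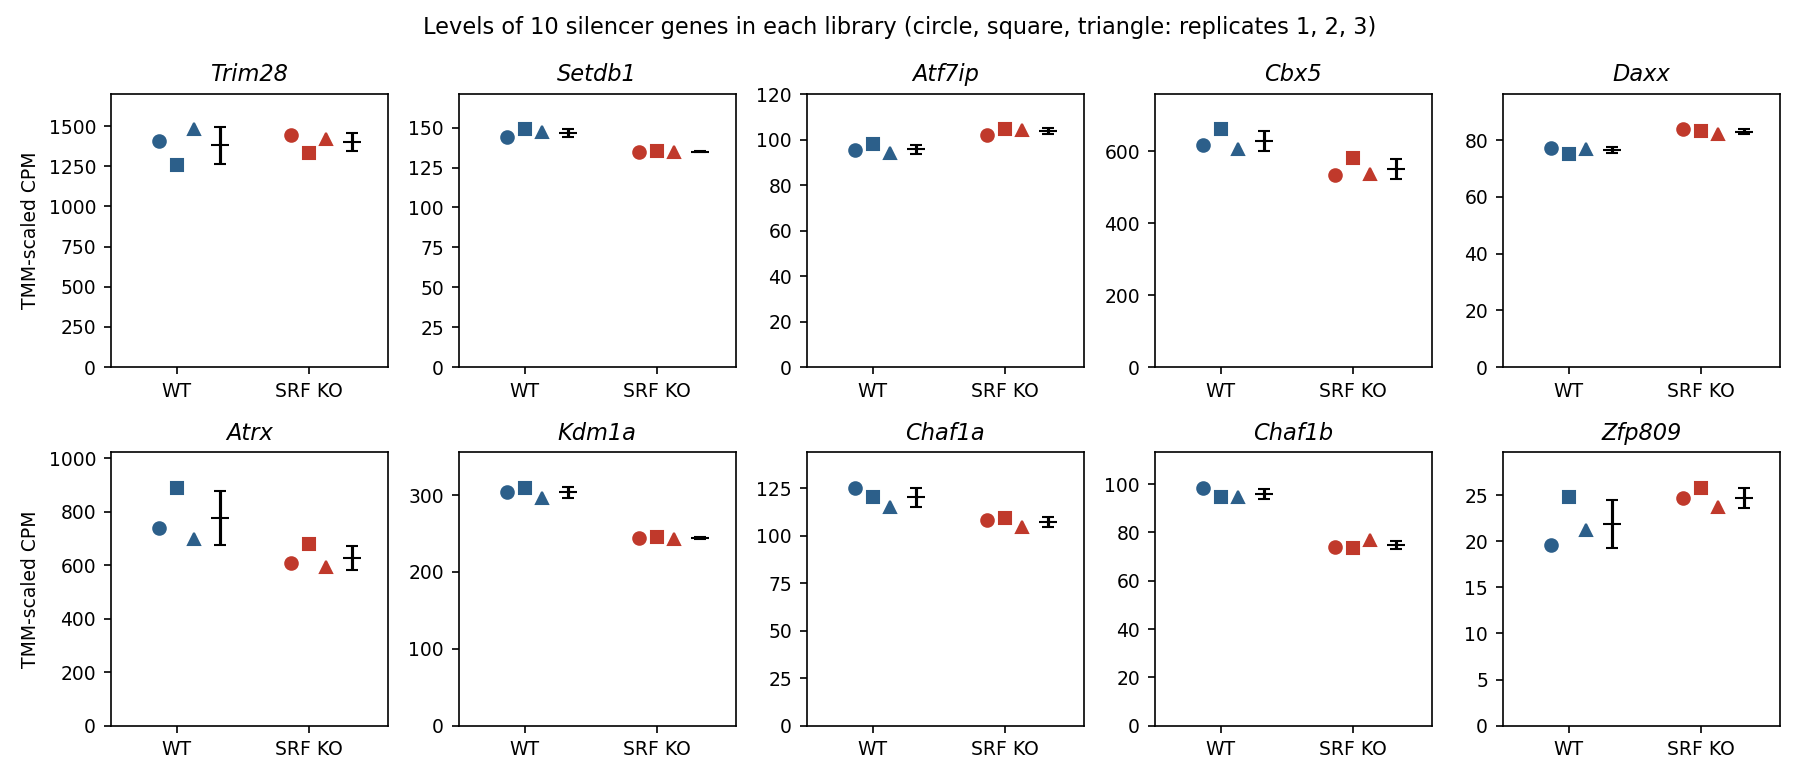
Levels (y axis, TMM-scaled CPM, from 0) of each silencer gene in the 3 WT (blue) and 3 SRF KO (red) libraries, with the mean and SD of each group in black. Chaf1b and Kdm1a separate by the widest margin for their spread, while the Trim28 and Zfp809 values of the groups overlap.

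**Figure D2:**
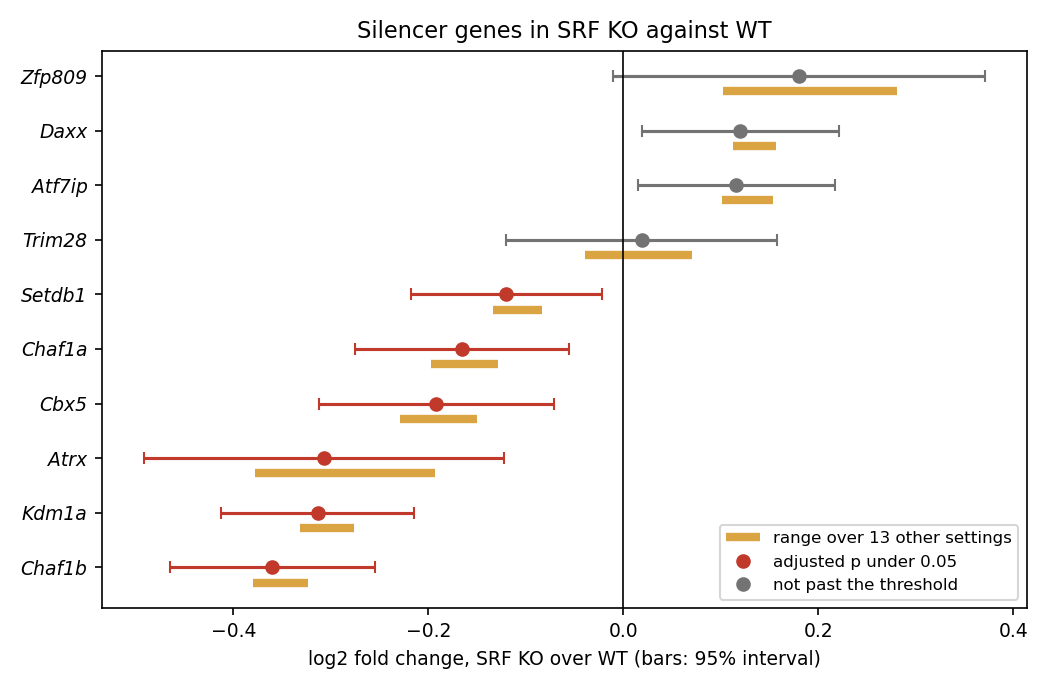
Log2 fold change of SRF KO over WT (x axis) with its 95% confidence interval for each silencer gene, in red where the adjusted p was under 0.05, and in yellow the range over 13 other settings. Chaf1b lies lowest at -0.36 and Zfp809 highest at 0.18, and only the range of Trim28 crosses 0.

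Chaf1a (chr17:56040439-56072289, plus strand) and Chaf1b (chr16:93883901-93906115, plus strand) encode the large and middle subunits of CAF-1 (chromatin assembly factor 1), which places histones H3 and H4 on newly copied DNA. Chaf1b was at 73.9, 73.5 and 76.8 CPM in SRF KO replicates 1 to 3 and at 98.5, 94.8 and 94.5 CPM in WT replicates 1 to 3. Every SRF KO library was thus well under the lowest WT library. Chaf1b changed by -0.36 on the log2 scale (SE 0.05, edgeR adjusted p 0.000112), and across the 13 other settings it was between -0.38 and -0.32. Chaf1a was at 108, 109 and 105 CPM in SRF KO and at 125, 120 and 115 CPM in WT. These groups did not overlap either, but they came closer, with SRF KO replicate 2 next to WT replicate 3. Chaf1a changed by -0.17 (SE 0.05, edgeR adjusted p 0.0207). Its call was lost without SRF KO replicate 1 (adjusted p 0.0706), SRF KO replicate 3 (0.0999) or WT replicate 1 (0.111), and with unscaled library totals (0.0529). In GENCODE M21, 4648 of the 8854 exonic bases of Chaf1a also lie in exons of Ubxn6 on the opposite strand. Without knowing whether counting used strand, reads of these genes cannot be told apart. Ubxn6 had a log2 fold change of -0.18 (adjusted p 0.0894).

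The promoters of Chaf1b and Kdm1a are shown because these were the genes called in every setting, and that of Chaf1a because it encodes the partner subunit of Chaf1b. SRF binds a motif called the CArG box, and its ternary complex partners bind the ETS core CCGGAA, so both were searched on both strands. The windows are RefSeq's (GRCm38.p6), reach from 250 bases before to 50 after the most upstream start, and were found for all 10 genes. Below they are cut to the bases before the start, none of which is exonic in GENCODE M21, and capitals mark CCGGAA or its reverse complement. Chaf1b is at chr16:93883651-93883900 (plus strand), Chaf1a at chr17:56040166-56040415 (plus strand) and Kdm1a at chr4:136602724-136602973 (minus strand), each read 5′ to 3′ on the gene's strand.
Chaf1b: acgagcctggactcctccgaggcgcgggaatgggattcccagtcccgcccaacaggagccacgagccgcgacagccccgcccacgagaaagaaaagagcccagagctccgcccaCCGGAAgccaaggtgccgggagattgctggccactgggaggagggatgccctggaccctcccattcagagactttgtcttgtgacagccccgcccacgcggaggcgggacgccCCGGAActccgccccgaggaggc
Chaf1a: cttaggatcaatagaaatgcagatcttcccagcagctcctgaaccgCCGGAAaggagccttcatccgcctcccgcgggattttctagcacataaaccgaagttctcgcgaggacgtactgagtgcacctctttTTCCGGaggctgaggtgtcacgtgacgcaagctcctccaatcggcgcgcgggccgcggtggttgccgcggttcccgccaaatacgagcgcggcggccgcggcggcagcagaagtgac
Kdm1a: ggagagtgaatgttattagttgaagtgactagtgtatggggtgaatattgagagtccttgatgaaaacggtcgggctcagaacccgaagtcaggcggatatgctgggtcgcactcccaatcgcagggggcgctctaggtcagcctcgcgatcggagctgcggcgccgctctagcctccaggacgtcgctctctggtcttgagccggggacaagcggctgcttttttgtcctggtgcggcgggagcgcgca
Chaf1b and Chaf1a each hold CCGGAA at 2 places and Kdm1a at none. Over the full windows, CCGGAA was found in 4 of the 10 genes (Setdb1, Daxx, Chaf1a and Chaf1b) and in 15.2% of all 27025 windows, 1 for each gene. A CArG box was found in 0 of the 10 and in 1.59% of all windows, which says only that this motif is not in these stretches. The exact E2F strings TTTCCCGC and TTTGGCGC, neither of which contains the other or CCGGAA, were in 0 of the 10. They were in 1.11% and 0.537% of all windows. Other forms of the E2F motif were not searched, so their absence is not shown. All 10 windows were richer in CpG than most, with an observed over expected ratio between 0.583 and 1.14 against a median of 0.389. The shares over all windows were not matched for this, and a link of CCGGAA here to SRF was not tested.

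Other genes of the replication fork were read beside CAF-1. Of 16 on the list, 9 fell and 0 rose, beside 21.3% lower and 21.2% higher among all genes tested. The median log2 fold change was -0.17. Rbbp4, which encodes the small subunit of CAF-1, fell by 0.15 on the log2 scale (adjusted p 0.0212). Rpa1, a single-strand DNA binding protein, and the helicase subunits Mcm4 and Mcm6 fell by 0.32, 0.32 and 0.26 on that scale. Dnmt1 and Uhrf1, which copy DNA methylation after replication, fell by 0.24 and 0.21. The clamp Pcna was at -0.14 and Mcm5 at 0.03, and both missed the threshold (adjusted p 0.0544 and 0.721).

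Kdm1a (chr4:136550540-136602723, minus strand) encodes LSD1, which removes methyl groups from lysine 4 of histone H3 as part of CoREST complexes. It was at 244, 246 and 242 CPM in SRF KO and at 304, 310 and 296 CPM in WT. The SRF KO libraries were almost level with each other, with a coefficient of variation of 0.721%, and all lay under the WT libraries. Kdm1a changed by -0.31 on the log2 scale (SE 0.05, edgeR adjusted p 0.000206), between -0.33 and -0.28 in the other settings. Luzp1, a gene on the opposite strand whose span overlaps Kdm1a but whose exons do not, was at 0.06 (adjusted p 0.417). Of 12 genes on a list of LSD1 partners, which also holds its relative Kdm1b, 9 fell, 0 rose and 3 did not pass the threshold. Their median was -0.22, and 21.3% were lower among all genes. Phf21a, which encodes the subunit that reads unmethylated lysine 4, stood at 65.1 ± 1.87 CPM in SRF KO against 91.7 ± 1.56 CPM in WT (SD, n = 3). It changed by -0.50 on the log2 scale (edgeR adjusted p 9.88e-06). Zmym3 was at -0.46 and Kdm1b, the second LSD family demethylase, at -0.41, both past the threshold. The corepressor genes Rcor2 and Rcor3 were lower at -0.23 and -0.28. Rcor1 was at 0.0042 and Hdac2 at -0.15, neither past the threshold (adjusted p 0.961 and 0.108). Leaving out SRF KO replicate 1 or SRF KO replicate 3, or using unscaled library totals, left 5 genes of this list lower. Over all genes, 2268, 2296 and 2576 were lower in these settings, against 3141 in the main fit.

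ATRX and DAXX together deposit histone H3.3 at repeats and telomeres, ATRX as the chromatin remodeller and DAXX as the chaperone. Atrx (chrX:105797615-105929403, minus strand) was at 606, 679 and 594 CPM in SRF KO and at 738, 889 and 699 CPM in WT. WT replicate 2 was the highest of all and SRF KO replicate 2 was close under the lowest WT library. Atrx changed by -0.31 on the log2 scale (SE 0.08, edgeR adjusted p 0.0126). It was -0.19 without WT replicate 2 (adjusted p 0.00507), and the call was lost without SRF KO replicate 1 (0.0566) or SRF KO replicate 3 (0.0679). Daxx (chr17:33909414-33915590, plus strand) was at 83.9, 83.2 and 82.1 CPM in SRF KO and at 77.2, 75.2 and 76.9 CPM in WT. Its SRF KO values were all above its WT values, yet the difference of 0.12 (95% interval 0.02 to 0.22, edgeR adjusted p 0.0567) missed the threshold. Daxx passed it as higher without WT replicate 2 (adjusted p 0.0356), with unscaled library totals (0.0191) and with upper-quartile factors (0.0498). Among 9 other genes of H3.3 deposition, 1 rose and 2 fell (against 21.2% and 21.3% of all genes tested), with a median of -0.05. H3f3b, an H3.3 gene with many pseudogenes, rose by 0.17 on the log2 scale. H3f3a, the other H3.3 gene on the list, went the other way, at 448 CPM in SRF KO against 501 CPM in WT. Its change of -0.16 missed the threshold (edgeR adjusted p 0.0517). Ubn1 and Ubn2, subunits of the HIRA chaperone complex, fell by 0.16 and 0.18. These 3 calls were lost without SRF KO replicate 1 and also without SRF KO replicate 3, that of Ubn1 also without WT replicate 1 or WT replicate 3 and under DESeq2 (adjusted p 0.0777), and that of Ubn2 also without WT replicate 1. With unscaled library totals Ubn1 and Ubn2 were not called (adjusted p 0.0798 and 0.0617). Without WT replicate 2 the number that rose was 2.

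Setdb1 (chr3:95323525-95357202, minus strand) encodes the methyltransferase that writes H3 lysine 9 trimethylation at retroelements, and Atf7ip (chr6:136506167-136610862, plus strand) its nuclear partner, which stabilises it. Setdb1 was at 134.6, 135.6 and 134.9 CPM in SRF KO and at 144, 149 and 147 CPM in WT. The SRF KO values were within about 1 CPM of each other and all under the WT values. The log2 fold change of -0.12 (SE 0.04, 95% interval -0.22 to -0.02) lay at the edge of the threshold, with an edgeR adjusted p of 0.0497. It passed in 2 of 13 other settings, and missed in 11 that included DESeq2 (adjusted p 0.114) and the fits without any 1 of the libraries but WT replicate 2. Atf7ip was at 102, 105 and 104 CPM in SRF KO and at 95.3, 98.0 and 93.9 CPM in WT. It was thus above WT in all 3 libraries, by 0.12 (95% interval 0.02 to 0.22, edgeR adjusted p 0.0638), which missed the threshold. Atf7ip passed it as higher without WT replicate 2 (adjusted p 0.0116) and with unscaled library totals (0.0171). Among 7 other H3 lysine 9 methyltransferase genes and partners, Suv39h1 rose by 0.19 and Wiz fell by 0.20 on the log2 scale, with a median of -0.04. Over all genes tested, 21.2% rose and 21.3% fell. The call of Suv39h1 was lost without SRF KO replicate 1, 2 or 3, and that of Wiz without any 1 of the libraries but WT replicate 2, under DESeq2 and with unscaled library totals. Without WT replicate 2, 2 genes on that list fell.

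Trim28 (chr7:12999114-13031035, plus strand) encodes the corepressor that links KRAB zinc finger proteins to SETDB1. It was at 1443, 1335 and 1417 CPM in SRF KO and at 1404, 1256 and 1480 CPM in WT. The groups overlapped, and the replicates labelled 2 were the lowest of each. The log2 fold change was 0.02 (95% interval -0.12 to 0.16, edgeR adjusted p 0.842), so differences within these bounds are not excluded. Its sign turned without WT replicate 2 (-0.04) and without SRF KO replicate 1 (-0.0042). Pias3, Pias4 and Pml, of the SUMO pathway that TRIM28 depends on for silencing, fell by 0.41, 0.26 and 0.24 on the log2 scale. They were the only 3 of 11 genes on that list to pass, with 0 higher, a share near the 21.3% lower among all genes. The call of Pias4 was lost when any 1 library but WT replicate 2 was left out, and with unscaled library totals.

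Zfp809 (chr9:22225714-22243354, plus strand) encodes a KRAB zinc finger protein that binds the primer binding site of murine leukaemia virus-like elements. It was the lowest gene of the 10 by CPM, at 24.6, 25.8 and 23.7 CPM in SRF KO and at 19.6, 24.8 and 21.3 CPM in WT. WT replicate 2 lay among the SRF KO values and the other WT libraries under them. The log2 fold change was 0.18 (95% interval -0.01 to 0.37, edgeR adjusted p 0.122). Without WT replicate 2 it was 0.28 and past the threshold (adjusted p 0.00219), and without WT replicate 1 it was 0.10 (adjusted p 0.426). Zfp809 belongs to a large family of similar genes, so its counts depend on how reads that fit several copies were treated. Of 10 other KRAB zinc finger genes tested, of 12 listed, Zfp819 and Zfp961 rose by 0.80 and 0.37 on the log2 scale and Gm15446, at 2.42 against 3.34 CPM, fell by 0.46. Calls in either direction made up 42.4% of all genes tested. The call of Gm15446 was lost under DESeq2 (adjusted p 0.0797) and without SRF KO replicate 1 (0.0753) or SRF KO replicate 2 (0.0509).

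Cbx5 (chr15:103191544-103239816, minus strand) encodes HP1 alpha, which binds methylated lysine 9 of histone H3 and compacts chromatin. It was at 533, 583 and 536 CPM in SRF KO and at 618, 662 and 607 CPM in WT. The replicates labelled 2 were the highest of both groups, and the groups did not overlap. The log2 fold change was -0.19 (SE 0.06, edgeR adjusted p 0.0156), and the call was lost without SRF KO replicate 1 (adjusted p 0.0920) or SRF KO replicate 3 (0.0806). The paralogue Cbx1 fell by 0.26 on the log2 scale (adjusted p 0.00666), and Cbx3 was at -0.10 (adjusted p 0.164). Per length, Cbx5 made up 20.2% ± 0.212 of the summed level of the 3 HP1 genes in the SRF KO libraries, and 20.4% ± 0.426 in the WT libraries (SD, n = 3). The share of Cbx1 was 39.5% ± 0.418 and 41.6% ± 1.14, and that of Cbx3 40.3% ± 0.233 and 38.0% ± 0.717. The shares of Cbx5 overlapped (exact two-sided permutation p = 0.8), while those of Cbx1 and Cbx3 did not (p = 0.1 for each, the smallest that 3 against 3 allows). Of the 7 genes tested on that list, which also holds the HUSH complex, a silencing complex of young retroelements, and its partners, Cbx1 alone passed the threshold. Among all genes tested, 42.4% passed it in either direction. Leaving out SRF KO replicate 2 or WT replicate 3 made 2 of the 7 lower, and without WT replicate 2 the number higher was 2.

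Within a library, the ratio of counts of partner genes does not depend on library scaling. The log2 ratio of Setdb1 to Atf7ip averaged 0.38 ± 0.01 over the SRF KO libraries and 0.62 ± 0.03 over the WT libraries (SD, n = 3), a gap of -0.24. That of Atrx to Daxx was 2.91 ± 0.10 and 3.33 ± 0.20, a difference of -0.42. That of Chaf1a to Chaf1b was 0.52 ± 0.07 and 0.33 ± 0.03, a difference of 0.20, though the Chaf1a counts may hold reads of Ubxn6. In these 3 pairs no SRF KO library overlapped a WT library. Setdb1 to Trim28 overlapped, at -3.37 ± 0.06 and -3.23 ± 0.14. Exact two-sided permutation tests over the 20 assignments gave p = 0.1, 0.1, 0.1 and 0.2 in this order (0.133, 0.133, 0.133 and 0.2 after Benjamini-Hochberg adjustment over the 4 ratios). Since 0.1 is the smallest p possible here, none could pass the threshold.

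**Figure D3:**
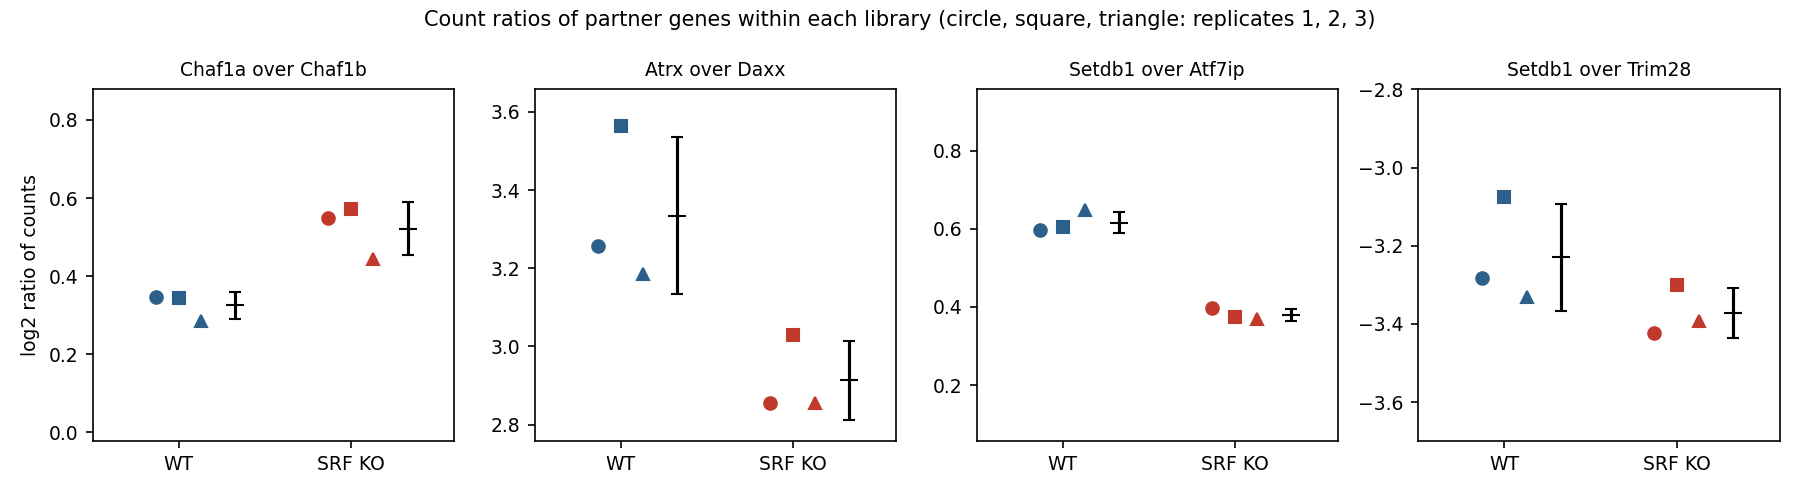
Log2 ratio of counts (y axis, each panel spanning the same height) of 4 pairs of partner genes in the 3 WT and 3 SRF KO libraries, with means and SDs in black. The groups separate for Setdb1 over Atf7ip, Atrx over Daxx and Chaf1a over Chaf1b, and overlap for Setdb1 over Trim28.

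Between genes, levels were compared per kilobase of the principal transcript in GENCODE M21. In WT, Trim28 was highest at 425 ± 35.1 CPM per kb, followed by Kdm1a at 101 ± 2.21, Atrx at 75.4 ± 9.80 and Cbx5 at 71.5 ± 3.29 CPM per kb (SD, n = 3). Chaf1b (49.9), Setdb1 (31.5), Daxx (28.6), Chaf1a (21.7), Zfp809 (15.4) and Atf7ip (11.9 CPM per kb) came after. The level of Chaf1a may hold reads of Ubxn6. Only Atrx and Cbx5 were neighbours whose WT libraries overlapped. In SRF KO, Daxx at 31.1 ± 0.342 CPM per kb stood above Setdb1 at 28.99 ± 0.113, and Cbx5 at 62.6 ± 3.15 overlapped Atrx at 61.0 ± 4.48.

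Across the 6 libraries, the genes with values most like those of Chaf1b, the silencer gene with the largest change, were Eya3, Mapt, Cdon, Shisa7 and Mrps10. Their Pearson correlations of log2 CPM with Chaf1b were between 0.998 and 0.999, the highest among 12343 genes with a mean of at least 50 counts. All 6 points share the group difference, so these values are a description.

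The targets of these silencers moved both ways. Of 13 genes of the 2-cell program tested, of 26 listed, 11 rose and 0 fell, against 21.2% and 21.3% of all genes tested. Their median was 1.56, at low levels such as 6.08 ± 0.902 against 2.38 ± 0.505 CPM for Zscan4f (SD, n = 3). Many of the 2-cell genes, such as those named Zscan4 and Usp17l, belong to multicopy families that share reads. Usp17la, Usp17lb, Usp17lc and Sp110 passed the filter on low counts only through SRF KO. Usp17la, for example, held 6, 7 and 3 counts in WT and 25, 21 and 30 in SRF KO. Pramef25, which was not called, passed in the same way. For such genes the filter favours a rise, so the 11 rises and the median of 1.56 are a description only. The 2-cell activator Dux was under the filter, and Dppa2, which acts upstream of it, rose by 0.39 on the log2 scale (adjusted p 0.000178), while Dppa4 was at -0.04 (adjusted p 0.633). Among 13 further repressors of the 2-cell program, most of them in the polycomb complex of PCGF6 and MGA, 3 rose and 2 fell, with a median of 0.06. The share called in either direction over all genes tested was 42.4%. E2f6 and Tfdp1 rose by 0.32 and 0.21 and Smchd1 fell by 0.21 on the log2 scale. The number that fell was 0 without SRF KO replicate 1 or SRF KO replicate 3, and the number that rose was 5 without WT replicate 2. Of 32 repeats tested that these pathways silence, 17 rose and 6 fell, against 5.88% higher and 11.0% lower (16.9% in either direction) among all 833 subfamilies tested. The groups were fully separate for 23 of the 32, against 29.2% of all subfamilies. This list was chosen with earlier results of these data known, so that the excess is no independent evidence.

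MMVL30-int, a virus-like element of the kind that ZFP809 binds, was at 464, 462 and 495 CPM in SRF KO and at 269, 285 and 284 CPM in WT. MMERVK10C-int was at 115, 132 and 120 CPM against 49.3, 53.4 and 46.0 CPM. RLTR1B-int was at 1652, 1735 and 1606 CPM against 884, 938 and 863 CPM. All 3 elements were higher in every SRF KO library, by 0.76, 1.30 and 0.90 on the log2 scale. MERVL-int was at 123, 132 and 132 CPM in SRF KO and at 77.1, 89.8 and 77.7 CPM in WT, a rise of 0.66 on that scale. Among intracisternal A particles and ETn elements, classic targets of TRIM28 and SETDB1, all 6 falls of the list were found, beside rises of IAPLTR2_Mm and ETnERV3-int. IAPEz-int was at 344, 367 and 350 CPM in SRF KO and at 452, 487 and 443 CPM in WT, a change of -0.38 on that scale (adjusted p 0.000154). ETnERV-int fell by 0.31 and IAP-d-int by 0.33. Retroelement counts are sums over many copies, and the counting rule for reads that fit several copies is not given in the sources used here.

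**Figure D4:**
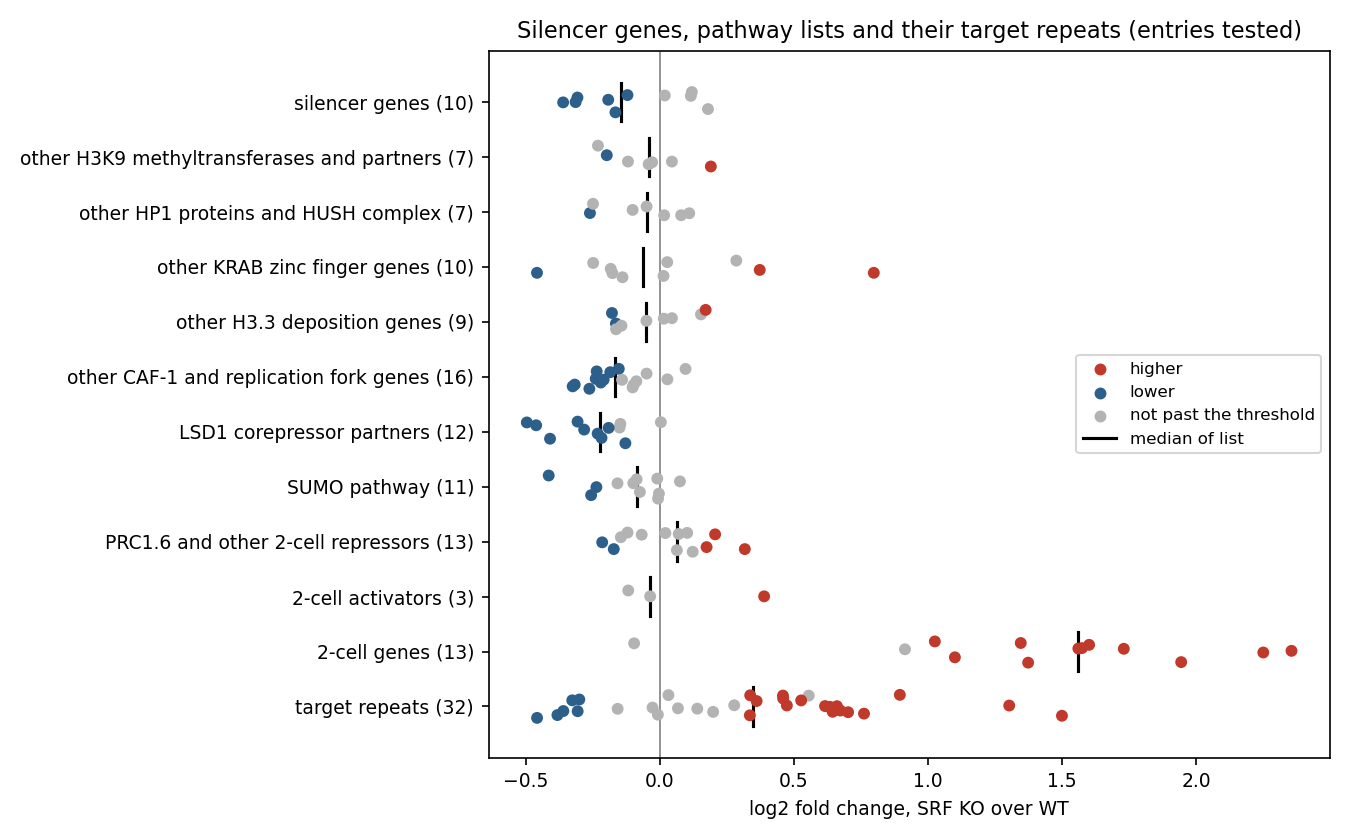
Log2 fold change of SRF KO over WT (x axis) of every tested entry on each list, with the number of entries in brackets, coloured by the call and with the list's median in black. LSD1 partners (with Kdm1b) and replication fork genes hold only falls among their calls, 2-cell genes only rises, and target repeats (17 higher, 6 lower) both. Some of the 2-cell genes passed the filter on low counts only through SRF KO.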

How the data were processed

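RNA was measured in 3 SRF KO and 3 WT libraries. The authors deposited whole-number read counts per gene and per transposable element subfamily, without normalization. Reads with adaptors or low quality had been removed, per the labels' protocols, and the build is mm10, per the submitters' processing notes. These notes also name DESeq2 with no role. Aligner, counting program, annotation and strand setting are not given in the sources used here. Columns were matched to samples by name.

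Genes and subfamilies, 25567 entries in all, entered 1 fit (R 4.3.3) after edgeR's filterByExpr (minimum count 10), with TMM scaling and edgeR's quasi-likelihood test (edgeR 4.0.16, Benjamini-Hochberg adjustment, threshold 0.05), and the group as the only term. The fit was tested on simulated counts. Gene models are GENCODE M21 and promoter windows RefSeq's, both GRCm38, the assembly of mm10. Alternatives were DESeq2 1.42.0, other scalings, no filter, gene entries alone, a replicate block, a threshold of 0.01 and leaving out each library. The silencer genes had at least 610 counts in each library, while several 2-cell genes and Gm15446 had few, so counting error is larger there; without molecular identifiers, reads cannot be taken for separate molecules.

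The genes and lists were chosen with earlier results of these data known. Named are all 10 silencer genes, Srf, up to 3 genes per pathway list that passed the threshold (those of smallest p), up to 3 repeats in each direction, MERVL-int, and the 5 genes most like the silencer gene that changed most. Other genes (such as Rbbp4, Dnmt1, Uhrf1, Pcna, Mcm5, Rcor1, Rcor2, Rcor3, Hdac2, Cbx3, Dppa4 and the genes that overlap a silencer gene) were named after their values were seen.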

Additional observations from a re-analysis of the deposited data

How the results depend on the processing

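The count of silencer genes lower (6) was 2 at an adjusted p under 0.01 and between 2 and 6 when each library was left out in turn, with 2 without SRF KO replicate 1 or 3. The count higher (0) was 2 with unscaled library totals, 1 with upper-quartile factors, and between 0 and 3 when each library was left out, with 3 (Atf7ip, Daxx and Zfp809) without WT replicate 2. At an unadjusted p under 0.05, Atf7ip and Daxx were higher in the main fit. The same 3 passed as higher with a replicate block. The numbers of the replicates were not taken as a pairing: deviations from the group means correlated at 0.0435, 0.358 and 0.218 between libraries of 1 number, and SRF KO replicate 1 did not correlate best with its own number. SRF KO replicates 2 and 3 did, so a pairing of these is not excluded. With the block 6 silencer genes were lower and 3 higher, and 3659 genes were higher and 3853 lower over all. In the main fit 3132 genes were higher and 3141 lower over all. At an adjusted p under 0.01 these numbers were 2199 and 2013, and without WT replicate 2 they were 3601 and 3796. Trim28 turned to -0.0042 without SRF KO replicate 1 and to -0.039 without WT replicate 2, the lowest of its values with a library left out, the highest being 0.071 without WT replicate 3. The cause of these changes was not tested. Fewer libraries give fewer residual degrees of freedom by construction. Of the comparisons of single silencer genes with an alternative, 97 kept direction and call, 22 lost the call, 9 gained it and 2 changed sign. Of other named entries 367 kept both and 42 lost the call.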
